A study of Mus musculus with 12 samples.

Results

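The genes of BMP and activin signalling described here were measured in the mouse aorta during the first days of an aortic dissection model. They comprised the ligand genes Bmp2, Bmp4 and Bmp6, the activin subunit gene Inhba, the antagonist gene Grem1, the receptor genes Bmpr1a, Bmpr2 and Acvrl1, and the target genes Id1 and Id3. These genes were found on the array by gene name, which gave 10 of 34797 gene names and 11 of 55681 probes. For all 10 genes, 1 probe was well above background, which means 13 background SDs, on all 12 arrays, and these probes are described here. The other probe, a second one for Bmp4, was well above background on 0 of 12 arrays and was left out.

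Aortic RNA of male mice of 129S5/SvEvBrd, C57BL6 and SJL background was hybridised to 12 one-colour microarrays, with 3 arrays in each of 4 groups. All mice carried the floxed allele of Socs3, which encodes a feedback inhibitor of Stat3 signalling. WT mice were littermates without a Cre transgene, and mice labelled smSocs3-KO carried SM22-Cre, which acts from a smooth muscle promoter. Each genotype was sampled without infusion (before challenge) and after 3 days of BAPN at 150 mg/kg/day with AngII at 1000 ng/kg/min from osmotic minipumps (day 3). None of the 4 groups carried pumps without these drugs, so that their effect cannot be told apart from pump implantation and elapsed time. BAPN inhibits the lysyl oxidases that crosslink collagen and elastin, and AngII can raise blood pressure. A paper that used these data reported that the same doses did not affect systolic pressure in its own mice. Ages were not given in the labels, which also do not say whether each array came from its own mouse, so that p-values measure the spread between these samples.

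BMPs are secreted dimers that bind a pair of type I and a pair of type II serine/threonine kinase receptors, whose signal passes through Smad1, Smad5 and Smad9 to the nucleus and switches on the Id genes. Activins, dimers of inhibin beta subunits, use related receptors and signal through Smad2 and Smad3. Gremlin and similar secreted proteins trap BMP ligands outside the cell. In the vessel wall, BMPR2 and ALK1, the product of Acvrl1, are best known from hereditary disorders of the pulmonary circulation and of small vessels. BMP2 and BMP4 have been linked to calcification and inflammation of arteries.

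To show the sequence from which the responding target gene starts, RefSeq promoters (build GRCm38.p6) were read for the 7 of 10 genes with an entry. Bmp2, Acvrl1 and Id1 had none. The 250 bases before the start are shown for Id3, the target gene that rose, and for Bmp4 and Inhba, the ligand genes with the largest differences in WT. Capitals mark matches on either strand to 5 motifs: GGCGCC and CAGAC, which Smad proteins can bind, TTCNNNGAA, the core of a Stat site, TATAA, the core of a TATA box, and GGGCGG, a GC box.
Id3, chr4:136143572-136143821, plus strand: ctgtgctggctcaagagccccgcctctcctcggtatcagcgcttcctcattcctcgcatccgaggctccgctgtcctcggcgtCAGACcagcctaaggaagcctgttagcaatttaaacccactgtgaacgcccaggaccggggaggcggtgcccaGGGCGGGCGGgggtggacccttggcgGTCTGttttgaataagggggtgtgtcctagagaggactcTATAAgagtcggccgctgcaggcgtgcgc
Bmp4, chr14:46390670-46390919, minus strand: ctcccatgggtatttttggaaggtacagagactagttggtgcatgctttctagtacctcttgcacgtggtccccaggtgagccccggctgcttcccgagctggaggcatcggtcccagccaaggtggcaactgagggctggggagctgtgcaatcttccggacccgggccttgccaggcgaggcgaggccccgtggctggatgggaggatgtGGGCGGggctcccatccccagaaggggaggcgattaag
Inhba, chr13:16011601-16011850, plus strand: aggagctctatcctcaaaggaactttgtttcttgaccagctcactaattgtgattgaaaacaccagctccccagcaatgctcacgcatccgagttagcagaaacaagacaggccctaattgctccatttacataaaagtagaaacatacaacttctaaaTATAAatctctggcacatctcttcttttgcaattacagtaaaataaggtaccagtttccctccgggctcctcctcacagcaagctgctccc

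The Id3 promoter held 2 matches to CAGAC, which start at -167 and -68 from the gene's start, 2 overlapping matches to GGGCGG at -94 and -90, and TATAA at -29. The Bmp4 promoter held GGGCGG at -38, and the Inhba promoter held TATAA at -91. No base lay in matches to 2 different motifs in these promoters. None of the 7 promoters matched TTCNNNGAA. Among 32851 promoters of the same length, 42.2% held CAGAC, 32.7% GGGCGG, 22.8% TATAA, 9.59% GGCGCC and 7.02% TTCNNNGAA. Grem1, Bmpr1a and Bmpr2 each had 1 match to GGCGCC. A match describes these letters and is no evidence of a bound site.

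Values are log2 of the processed signal relative to the 75th percentile of the array, and they compare the arrays for 1 probe, not the genes with each other. A difference was called at a Benjamini-Hochberg adjusted p under 0.05 over all 22761 genes with a kept probe. The targeted gene, Socs3, was not lower on average on the arrays labelled smSocs3-KO. It read 0.10, 0.97 and 1.29 there before challenge, compared with 0.15, 0.17 and 0.58 in WT. At day 3 it read 3.10, 2.08 and 3.93, compared with 2.01, 2.13 and 0.47 in WT. Whether its probe lies in the deleted part of the gene was not checked. The tissue also holds cells other than smooth muscle, so that these values do not test the deletion. Slide 1 held all 6 WT arrays together with smSocs3-KO replicate 1 before challenge, and slide 2 held the remaining 5 smSocs3-KO arrays, which makes most of a genotype difference also a slide difference. WT day 3 replicate 4 stood apart from the other WT day 3 arrays. In this bulk tissue, fewer cells of a type and less RNA per cell cannot be told apart.

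Some of the marker lists moved with the challenge or with the labels. The summed linear level of 7 of 8 proliferation markers was 1.61 to 2.31 in WT and 1.995 to 2.24 in smSocs3-KO before challenge. WT replicates 1, 3 and 4 reached 61.3, 62.4 and 8.50 at day 3, and smSocs3-KO reached 6.41 to 23.1. For 7 of 8 macrophage markers the sum was 32.5 to 33.9 in WT and 32.4 to 46.6 in smSocs3-KO before challenge, while WT replicates 1, 3 and 4 reached 86.5, 62.6 and 36.8 at day 3 and smSocs3-KO reached 81.8 to 89.2. All 8 smooth muscle markers were kept, and their sum was 2399 to 2674 (WT) and 2118 to 3227 (smSocs3-KO) before challenge, compared with 1833 to 2365 and 1486 to 1774 at day 3. The sum of 8 mesothelial markers was 3.14 to 22.6 in WT and 37.5 to 77.8 in smSocs3-KO. That of 8 endothelial markers was 61.2 to 61.8 in WT before challenge and 74.6 to 80.2 at day 3. In smSocs3-KO the endothelial sum was 49.8 to 69.4 before challenge and 52.0 to 68.8 at day 3. The 2 kept adrenal markers summed to at most 0.463. The sum of 7 of 8 adipocyte markers ranged from 32.7 to 264 and was highest in smSocs3-KO day 3 replicates 3 and 5 (200.2 and 264). For the fibroblast, neutrophil, lymphocyte and Schwann cell lists, the sums overlapped between the groups compared. Striated muscle sums overlapped in WT, but in smSocs3-KO they were 41.1 to 57.8 before challenge and 23.1 to 40.8 at day 3. The part of these shifts in the members' values was not tested.

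**Figure D1:**
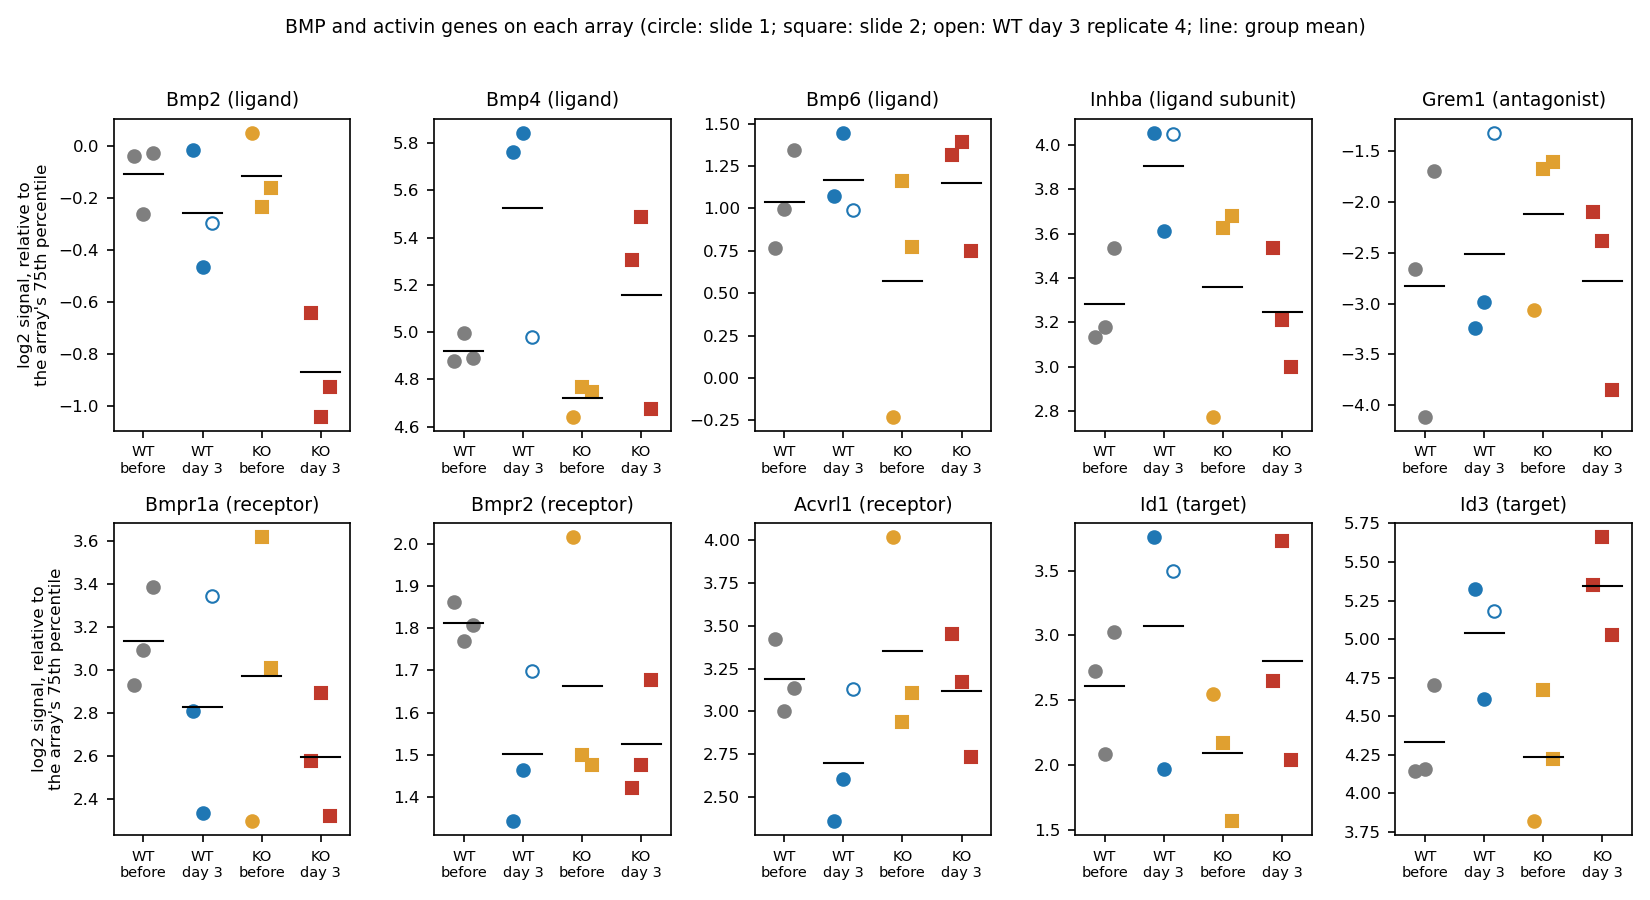
Log2 signal of each gene relative to the array's 75th percentile (y axis, own scale in each panel) in the 4 groups (x axis), with 1 point per array, circles for slide 1, squares for slide 2, an open symbol for WT day 3 replicate 4 and a line for the group mean of 3 arrays. Bmp2 lay lowest on the 3 smSocs3-KO arrays of day 3 (-1.04 to -0.64), and Id3 lay above every array of its genotype before challenge on these 3 arrays (5.03 to 5.66).

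Id3 was higher and Bmp2 lower at day 3 than before challenge when both genotypes were averaged, and these were the members that passed the test. Id3, which encodes an inhibitor of DNA binding that BMP receptors switch on, rose by 0.91 (SE 0.20, 95% CI 0.47 to 1.34, adjusted p = 0.0128), a 1.87-fold rise. Bmp2, a ligand known for bone formation and vascular calcification, fell by 0.45 (SE 0.12, 95% CI -0.72 to -0.18, adjusted p = 0.0265), to 0.731 of its level. Its difference was -0.75 in smSocs3-KO but -0.15 in WT, where the groups overlapped. Its call in the mean response was lost in 7 of 23 alternatives. Id3 and Bmp2 made 2 of 10 members called in the mean challenge response, compared with 22.9% of all genes, so that the share of members was close to that of the background. At an unadjusted p under 0.05 there were 3 of 10, compared with 39.7% of all genes. The median log2 difference was 0.04 over the members and -0.08 over all genes.

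Taken by genotype, none of the members passed the adjusted threshold by limma. In WT, 0 of 10 were called, compared with 4.7% of all genes, and 3 of 10 (Bmp4, Inhba and Id3) had an unadjusted p under 0.05, compared with 26.6%. The groups did not overlap for 2 of 10 (Inhba higher, Bmpr2 lower), compared with 35.3%. On the arrays labelled smSocs3-KO, 0 of 10 were called, compared with 2.41%, 2 of 10 (Bmp2 and Id3) had an unadjusted p under 0.05, compared with 24.3%, and the groups did not overlap for these same 2, compared with 29%. The medians over the members were 0.22 in WT and -0.13 in smSocs3-KO, and those over all genes were -0.04 and -0.11.

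Between the genotypes, the members were likewise not called. Before challenge, 0 of 10 passed the adjusted threshold, compared with 0.0308% of all genes, 0 of 10 had an unadjusted p under 0.05, compared with 4.37%, and the groups did not overlap for 1 of 10 (Bmp4, lower in smSocs3-KO), compared with 11.1%. At day 3, 0 of 10 passed, compared with 1.09%, while 2 of 10 (Bmp2 and Inhba, both lower in smSocs3-KO) had an unadjusted p under 0.05, compared with 16.6%, and did not overlap, compared with 21.5%. The genotype by challenge interaction, which tests whether the response differed between genotypes, called 0 of 10 members and 0% of all genes. In it, 1 of 10 (Bmp2) had an unadjusted p under 0.05, compared with 5.54%. The 4-fold rule for arrays, an unadjusted p under 0.01 with a change above 4-fold or below 0.25, was met by 0 of 10 members in each comparison. It was met by 1.25% of all genes in the WT response, 1.56% in the smSocs3-KO response, 0.237% between genotypes before challenge, 1.09% at day 3, 0.303% in the interaction and 1.23% in the mean response.

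**Figure D2:**
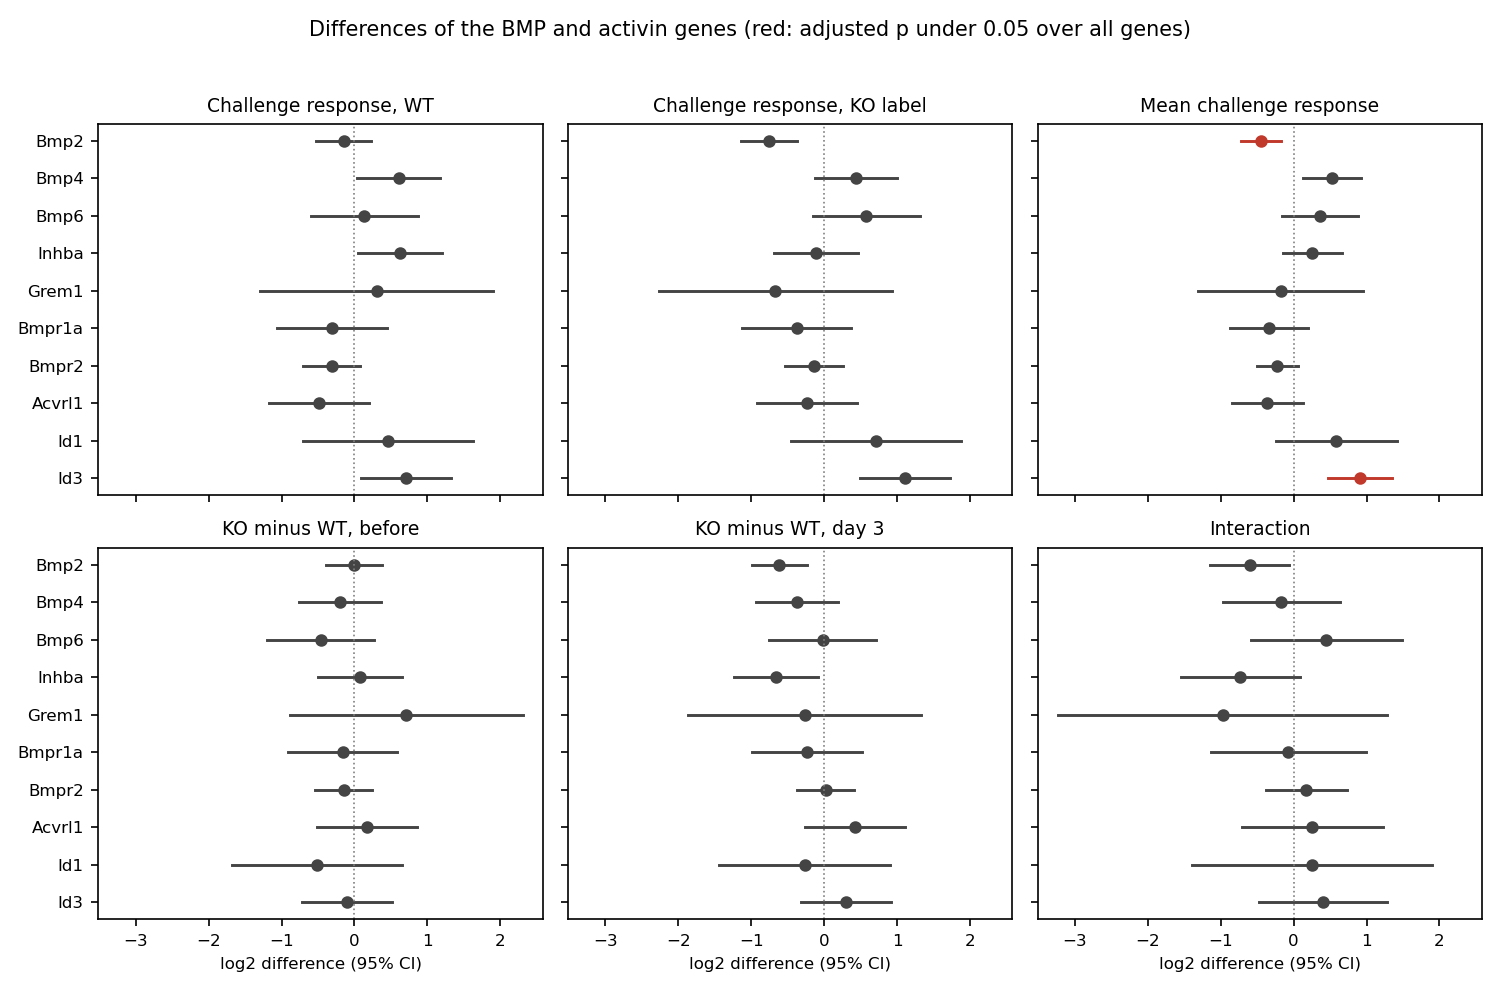
Log2 difference (x axis) of each gene (y axis) in 6 comparisons, with the 95% confidence interval as a bar and red for an adjusted p under 0.05 over all genes. The mean challenge response of Id3 (0.91) and of Bmp2 (-0.45) are the values in red, and the intervals of Grem1 are the widest, reaching from -3.23 to 1.29 in the interaction.

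Among the ligand members, Bmp2 had the largest response on the arrays labelled smSocs3-KO. Its probe (mm9, chr2:133388260-133388319) read -0.04, -0.26 and -0.03 in WT before challenge and -0.02, -0.46 and -0.30 at day 3. It read 0.05, -0.23 and -0.16 in smSocs3-KO before challenge and -0.64, -1.04 and -0.93 at day 3. The 3 smSocs3-KO arrays of day 3 were thus the lowest of all 12, while the other 9 lay between -0.46 and 0.05, with WT before and at day 3 overlapping.

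The Bmp2 difference was -0.75 (SE 0.17) in smSocs3-KO, with an adjusted p = 0.0507, and -0.15 (SE 0.17) in WT, with an adjusted p = 0.606. Within slide 2, where 2 arrays before challenge and 3 at day 3 remained, the smSocs3-KO difference was -0.67 (adjusted p = 0.15), and without WT day 3 replicate 4 in the fit it was -0.75 (adjusted p = 0.0309). At day 3, Bmp2 was 0.61 lower in smSocs3-KO than in WT on the log2 scale (difference -0.61, SE 0.17, adjusted p = 0.128), and with slide as a block the difference was -0.36 (adjusted p = 0.545). The difference between the responses was -0.60 (95% CI -1.15 to -0.06, adjusted p = 0.887). The slide-blocked genotype values rest on 1 array, smSocs3-KO replicate 1 before challenge, which alone links the slides.

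The mean response of Bmp2 kept its direction under all 23 alternatives but not its side of the threshold under each. It missed the threshold without WT replicate 1 before challenge (-0.43, adjusted p = 0.0702), without WT replicate 3 before challenge (-0.43, adjusted p = 0.0551) and without WT day 3 replicate 3 (-0.40, adjusted p = 0.0562). It also missed it without smSocs3-KO day 3 replicate 3 (-0.41, adjusted p = 0.0527) and replicate 5 (-0.44, adjusted p = 0.0540), with no filter on dim probes (-0.45, adjusted p = 0.0576) and with the replicate block (-0.40, adjusted p = 0.129). With slide as a block it was -0.41 (adjusted p = 0.0473).

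Bmp4, a ligand that endothelial and smooth muscle cells secrete, was higher on 4 of the 6 day 3 arrays. Its probe (mm9, chr14:47003391-47003450) read 4.88, 4.998 and 4.89 in WT before challenge and 5.76, 5.84 and 4.98 at day 3 in replicates 1, 3 and 4. It read 4.64, 4.77 and 4.75 in smSocs3-KO before challenge and 5.31, 5.49 and 4.68 at day 3 in replicates 2, 3 and 5. One array of each day 3 group, WT replicate 4 and smSocs3-KO replicate 5, thus lay at the level before challenge, and the other 4 lay above all arrays before challenge. These 2 arrays also had the lowest proliferation sums of their groups (8.50 and 6.41), and the part of this in the Bmp4 values was not tested.

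The Bmp4 difference was 0.61 (SE 0.26, adjusted p = 0.163) in WT, 0.44 (SE 0.26, adjusted p = 0.308) in smSocs3-KO and 0.52 (SE 0.18, adjusted p = 0.0594) in the mean response. Without WT day 3 replicate 4 it passed the threshold in WT (0.88, adjusted p = 0.0257) and in the mean response (0.66, adjusted p = 0.0102), and without smSocs3-KO day 3 replicate 5 it passed it in the mean response (0.64, adjusted p = 0.0325). Both arrays held the lowest Bmp4 value of their day 3 group, so that leaving either out enlarges the difference. In the mean response, only these 2 of the 12 fits that left out 1 array passed the threshold. With all 12 arrays, the mean response also passed it with normexp background correction (0.55, adjusted p = 0.0378) and with trended, robust moderation of the variances (0.52, adjusted p = 0.0400). Before challenge, the 3 arrays labelled smSocs3-KO lay below the 3 WT arrays, with a difference of -0.20 (SE 0.26, adjusted p = 1). That difference was smaller than the SE of the fit, in which the spread of the day 3 arrays also counts. The SD between the 3 arrays before challenge was 0.07 in each genotype.

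Bmp6, a ligand known for the control of iron through hepcidin, varied without a clear order. It read 0.77, 0.99 and 1.35 in WT before challenge and 1.07, 1.44 and 0.99 at day 3. It read -0.23, 1.16 and 0.77 in smSocs3-KO before challenge and 1.32, 1.39 and 0.75 at day 3 (mm9, chr13:38591479-38591538). The lowest array, smSocs3-KO replicate 1 before challenge, was the one on the other slide, and the remaining 11 arrays overlapped across the groups. The smSocs3-KO response was 0.58 (SE 0.33, adjusted p = 0.299) and the mean response 0.36. Without that lowest array, or with slide as a block, they became 0.18 and 0.16, and without smSocs3-KO replicate 3 before challenge the smSocs3-KO response was 0.88.

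Inhba encodes the inhibin beta A subunit, which forms activin A as a homodimer. Its probe (mm9, chr13:16118634-16118693) read 3.13, 3.18 and 3.54 in WT before challenge and 4.05, 3.61 and 4.05 at day 3. It read 2.77, 3.63 and 3.68 in smSocs3-KO before challenge and 3.54, 3.21 and 3.00 at day 3. In WT the day 3 arrays lay above all arrays before challenge, by 0.62 on average (SE 0.26, 95% CI 0.04 to 1.20, adjusted p = 0.162). In smSocs3-KO the groups overlapped (-0.11, SE 0.26, adjusted p = 0.802).

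At day 3 all 3 arrays labelled smSocs3-KO lay below the 3 WT arrays for Inhba. The difference was -0.66 (SE 0.26, 95% CI -1.24 to -0.08), with an adjusted p = 0.246. The difference between the genotypes' responses was -0.73 (95% CI -1.55 to 0.08, adjusted p = 0.925). Among the arrays labelled smSocs3-KO before challenge, the 1 on slide 1 read 2.77 and the 2 on slide 2 read 3.63 and 3.68. With slide as a block, the day 3 difference was -1.53 (adjusted p = 0.222), a value that rests on the array on slide 1.

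**Figure D3:**
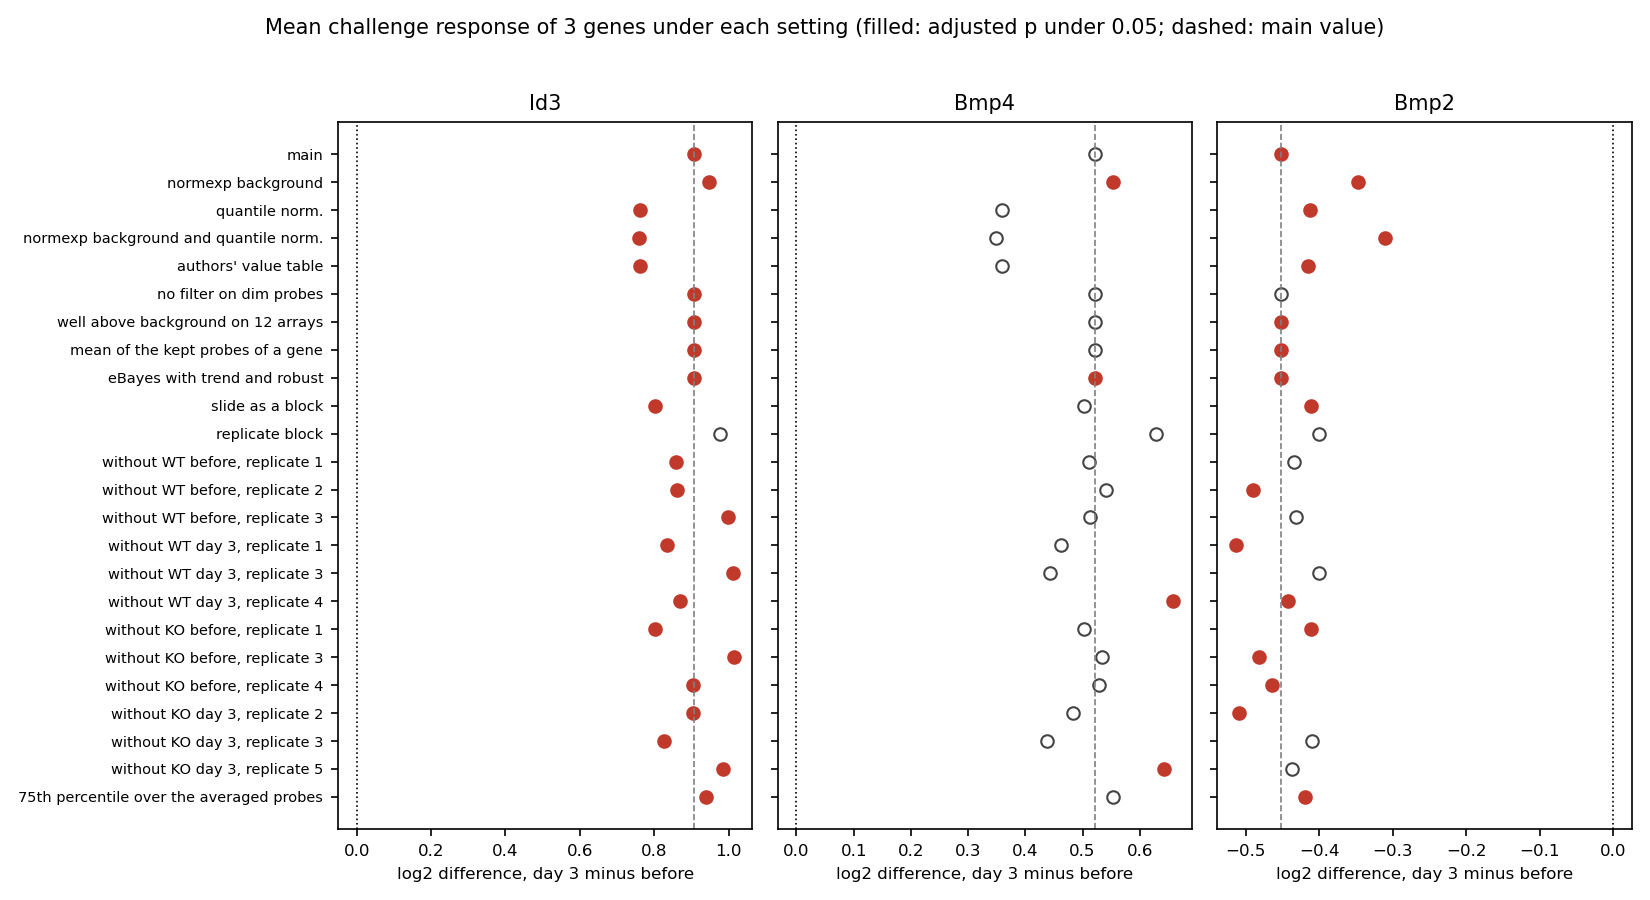
Mean challenge response (x axis, log2 difference) of Id3, Bmp4 and Bmp2 in the main fit and under each alternative (y axis), with filled red symbols for an adjusted p under 0.05 over all genes, a dashed line at the main value and a dotted line at 0. Id3 ranged from 0.76 to 1.01 and missed the threshold only with the replicate block, Bmp4 ranged from 0.35 to 0.66, and Bmp2 ranged from -0.51 to -0.31.

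Grem1 encodes gremlin 1, a secreted antagonist of BMP2, BMP4 and BMP7, and it was the most variable member. Its probe (mm9, chr2:113589227-113589286) read -2.66, -4.11 and -1.69 in WT before challenge and -3.24, -2.98 and -1.32 at day 3. It read -3.06, -1.67 and -1.61 in smSocs3-KO before challenge and -2.10, -2.39 and -3.85 at day 3. The SD between the 3 arrays of a group was 0.82 to 1.22, and all groups overlapped. The mean response was -0.18, and its 95% interval reached from -1.31 to 0.95 (adjusted p = 0.81).

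The type I receptor gene Bmpr1a, which encodes ALK3, lay lower on average at day 3 in both genotypes within overlapping groups. It read 2.93, 3.09 and 3.38 in WT before challenge and 2.81, 2.34 and 3.35 at day 3. It read 2.30, 3.62 and 3.01 in smSocs3-KO before challenge and 2.58, 2.89 and 2.32 at day 3 (mm9, chr14:35224339-35224398). WT day 3 replicate 4 lay with the arrays before challenge, and smSocs3-KO replicate 1 before challenge lay lowest of all. The mean response was -0.34 (SE 0.24, 95% CI -0.87 to 0.19, adjusted p = 0.307), and with slide as a block it was -0.51 (adjusted p = 0.112).

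Bmpr2, the type II receptor gene of this group, had the narrowest range in WT before challenge. Its probe (mm9, chr1:59927276-59927335) read 1.86, 1.77 and 1.81 there and 1.34, 1.46 and 1.70 at day 3. It read 2.02, 1.50 and 1.47 in smSocs3-KO before challenge and 1.42, 1.48 and 1.68 at day 3. All 3 WT day 3 arrays lay below the WT arrays before challenge, by 0.31 on average (difference -0.31, SE 0.18, adjusted p = 0.285). In smSocs3-KO, the array on slide 1 was the highest of all 12, and within slide 2 the response was 0.04 in place of -0.14.

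Acvrl1 encodes ALK1, the type I receptor of endothelial cells for BMP9 and BMP10. It read 3.42, 3.00 and 3.14 in WT before challenge and 2.36, 2.60 and 3.13 at day 3. It read 4.02, 2.94 and 3.11 in smSocs3-KO before challenge and 3.45, 3.17 and 2.74 at day 3 (mm9, chr15:100974010-100974069). WT day 3 replicates 1 and 3 were the lowest of all 12 arrays, replicate 4 lay within the range before challenge, and smSocs3-KO replicate 1 before challenge was the highest. The WT response was -0.49 (SE 0.31, 95% CI -1.18 to 0.20, adjusted p = 0.333). The endothelial marker sum was 74.6 to 80.2 on the same WT day 3 arrays and 61.2 to 61.8 before. Of its 8 markers, 6 were higher and 2 lower on average at day 3 in WT. The part of endothelial cell number in the Acvrl1 values was not tested.

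The target gene Id1 spread widely within groups. Its probe (mm9, chr2:152563083-152563142) read 2.73, 2.09 and 3.02 in WT before challenge and 3.76, 1.97 and 3.50 at day 3. It read 2.55, 2.17 and 1.57 in smSocs3-KO before challenge and 2.65, 3.73 and 2.04 at day 3. The 3 highest arrays were all of day 3, but each day 3 group also held a low array (1.97 and 2.04). The mean response was 0.59 (SE 0.37, 95% CI -0.24 to 1.41, adjusted p = 0.261), and it ranged from 0.36 (without smSocs3-KO day 3 replicate 3) to 0.86 (without WT day 3 replicate 3) when single arrays were left out.

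Id3 was the member with the largest challenge response. Its probe (mm9, chr4:135700075-135700249) read 4.14, 4.16 and 4.70 in WT before challenge and 5.33, 4.61 and 5.18 at day 3. It read 3.82, 4.67 and 4.23 in smSocs3-KO before challenge and 5.35, 5.66 and 5.03 at day 3. In smSocs3-KO the groups did not overlap, while in WT 1 day 3 array, replicate 3, lay just below the highest array before challenge.

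The Id3 difference was 0.71 (SE 0.28, 95% CI 0.09 to 1.32, adjusted p = 0.142) in WT and 1.11 (SE 0.28, 95% CI 0.49 to 1.73, adjusted p = 0.0644) in smSocs3-KO. Within slide 2 the smSocs3-KO response was 0.90 (adjusted p = 0.185), and without WT day 3 replicate 4 in the fit it was 1.11 (adjusted p = 0.0443). The responses differed by 0.40 between genotypes (95% CI -0.47 to 1.28, adjusted p = 0.963). In the mean response, Id3 passed the threshold in all 12 fits that left out 1 array (0.80 to 1.01, highest adjusted p = 0.0387) and with slide as a block (0.80, adjusted p = 0.0252). WT day 3 replicate 4, which was low in proliferation and macrophage markers, had a high Id3 value (5.18). The part of cell composition in the Id3 values was not tested.

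The other genes of the pathway were described from lists of ligands, receptors and co-receptors, extracellular antagonists, Smads with their regulators, and targets. All 60 were on the array and 48 were tested. The 12 not kept were the ligands Bmp5, Bmp8b, Bmp10, Bmp15, Gdf11, Mstn and Inhbc, the co-receptors Hfe2 and Bambi, the antagonist Cer1, and the targets Hamp and Runx2. In the mean challenge response, 6 of 48 rose and 6 fell, compared with 22.9% called among all genes. By list, 1 rose and 1 fell of 11 ligands, 1 rose and 3 fell of 10 receptors and co-receptors, 3 rose of 13 antagonists, 1 rose of 8 Smads and regulators, and 2 fell of 6 targets. The median was -0.03 over the list and -0.08 over all genes.

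Gdf6, a BMP ligand of joint and eye development, rose by 2.15 in the mean response (SE 0.35, adjusted p = 0.00613), the largest rise of the list. It read -2.35, -2.59 and -2.07 in WT before challenge and 0.17, 0.32 and -1.70 at day 3, and -3.89, -2.73 and -3.31 in smSocs3-KO before challenge and -1.30, -0.42 and -1.13 at day 3. Every day 3 array thus lay above the arrays of its genotype before challenge, with WT day 3 replicate 4 nearest to them. Its probe was well above background on 11 of 12 arrays. In smSocs3-KO Gdf6 rose by 2.36 (adjusted p = 0.0403), which within slide 2 was 2.07 (adjusted p = 0.136). In WT it rose by 1.93 (adjusted p = 0.0522).

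Among receptors, Eng, which encodes the endothelial co-receptor endoglin that partners ALK1, rose by 0.65 in the mean response (SE 0.15, adjusted p = 0.0156). It read 1.29, 1.59 and 1.31 in WT before challenge and 2.01, 2.14 and 1.45 at day 3, and 1.32, 1.43 and 1.87 in smSocs3-KO before challenge and 2.36, 2.28 and 2.43 at day 3. Only WT day 3 replicate 4 lay within the range before challenge. Bmpr1b, which encodes ALK6, the closest relative of ALK3, fell by 0.92 (SE 0.22, adjusted p = 0.0166). The activin type II receptor gene Acvr2b fell by 0.49 (SE 0.16, adjusted p = 0.0464), and Rgmb, a BMP co-receptor gene, fell by 0.54 (SE 0.15, adjusted p = 0.0297).

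Of the antagonist list, 3 of 13 rose in the mean response. Bmper, which encodes a secreted BMP modulator of endothelial cells, rose by 1.67 (SE 0.38, adjusted p = 0.014), from -0.75, -1.16 and -0.96 in WT before challenge to 1.68, 0.83 and -0.78 at day 3, and from -0.32, 0.52 and -0.04 in smSocs3-KO to 2.19, 1.15 and 2.25. WT day 3 replicate 4 was again at the level before challenge. Fstl3, which encodes a binding protein of activin, rose by 0.45 (SE 0.14, adjusted p = 0.0404), and Fstl1, a follistatin-like protein gene, by 0.37 (SE 0.12, adjusted p = 0.0464).

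Chrdl2, a chordin-like antagonist gene, was the list gene that met the 4-fold rule between genotypes before challenge, with a measured difference of 3.01 (adjusted p = 0.794). It read -6.30, -5.63 and -2.88 in WT and -2.74, -2.03 and -1.01 in smSocs3-KO. The probe was well above background on 1 of the 3 WT arrays and all 3 smSocs3-KO arrays, and with normexp background correction the difference was 0.91, so that its size depends on dim WT values. Among Smads and regulators, 1 of 8 rose: Smad7, an inhibitory Smad gene, by 0.71 (SE 0.21, adjusted p = 0.0376). Among 6 other target genes, Msx1 and Dlx5, homeobox genes of BMP response in the embryo, fell by 0.61 (SE 0.11, adjusted p = 0.0072) and by 0.60 (SE 0.17, adjusted p = 0.0271). By genotype, Msx1 fell by 0.65 in WT (SE 0.15, adjusted p = 0.0408), and its difference in smSocs3-KO was -0.57 (adjusted p = 0.071). The ligand gene Bmp7 fell by 1.17 (SE 0.32, adjusted p = 0.0268).

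Of these 12 genes called in the mean response, Gdf6, Eng, Bmper, Bmpr1b and Msx1 passed the threshold in all 12 fits that left out 1 array. The others missed it in 6 (Bmp7 and Rgmb), 8 (Smad7, Fstl1 and Dlx5), 9 (Fstl3) and 10 (Acvr2b) of the 12 fits, in each case without WT replicate 1 before challenge among others. Over all alternatives, the highest adjusted p of these 7 genes lay between 0.0656 (Bmp7) and 0.197 (Acvr2b). With the replicate block, Eng (adjusted p = 0.107), Bmpr1b (0.0696), Bmper (0.0656) and Msx1 (0.0653) missed the threshold as well, so that of the 12 genes only Gdf6 passed it in every alternative that kept its probe (highest adjusted p = 0.0307). With slide as a block, Fstl1 (adjusted p = 0.0778), Fstl3 (0.0734), Smad7 (0.0744) and Dlx5 (0.0511) were not called. Gdf6 in smSocs3-KO and Msx1 in WT each missed it in 9 of the 12 fits.

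**Figure D4:**
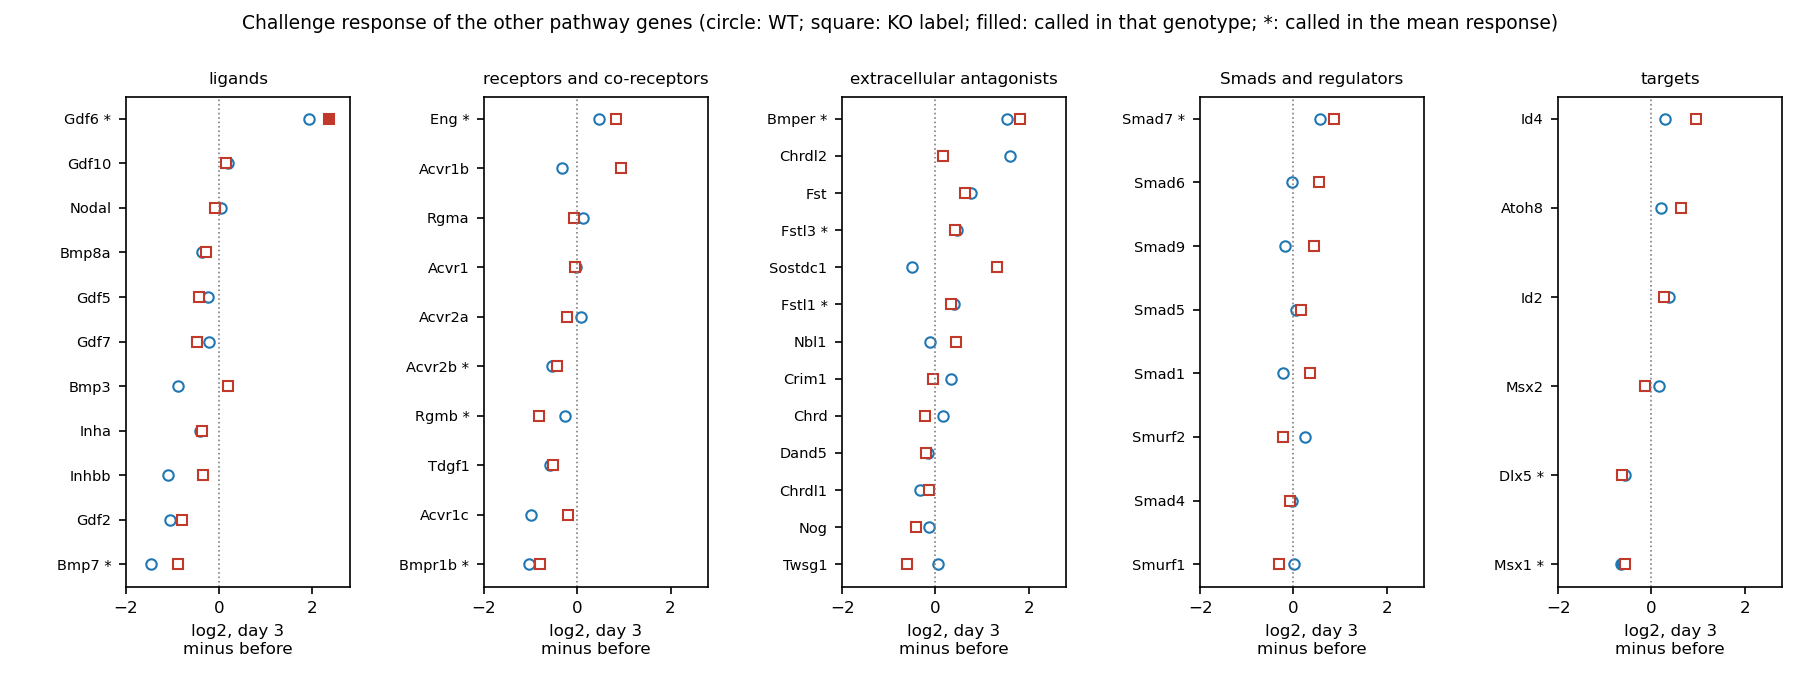
Challenge response (x axis, log2 difference between day 3 and before challenge) of the 48 other pathway genes tested (y axis, ordered by the mean response within each list), with circles for WT, squares for smSocs3-KO, filled symbols for an adjusted p under 0.05 in that genotype and an asterisk for one in the mean response. Gdf6 (1.93 and 2.36) and Bmper (1.53 and 1.81) lay well to the right of 0 in both genotypes.

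The search for similar patterns covered 12682 genes with a gene symbol whose probes exceeded the background limit on each of the arrays. Rik, Gm and other predicted or transcript names were left out. The genes whose pattern over the 12 arrays was most like a member were ranked by Pearson's r. For Id3 these were Atp10a (0.97), Uhrf2 (0.96) and Fuca1 (0.96), and for Bmp4 Stmn1 (0.95), Unc5b (0.94) and Wdr67 (0.94). For Bmp2 they were Tcf25 (0.90), Usp28 (0.90) and Mgat5 (0.90), and for Inhba Mllt11 (0.95), Tmem184b (0.93) and Slc25a11 (0.93). For the receptor genes the closest were Hmgxb4 for Bmpr1a (0.97), Cyth3 for Bmpr2 (0.94) and Bcas3 for Acvrl1 (0.95). Zfp273 was closest to Grem1 (0.92), Acad9 to Bmp6 (0.91) and Herpud1 to Id1 (0.88). By rank, the likeness of some of these genes was weaker. Spearman's rho with Bmp2 was 0.69 for Tcf25, 0.75 for Usp28 and 0.68 for Mgat5, and that of Acad9 with Bmp6 was 0.73. The highest rho of the genes named was 0.99, for Hmgxb4 with Bmpr1a. These points share the group differences, the slides and the array scaling, and the values describe 12 arrays only.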

How the data were processed

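The authors deposited the scanner output of 12 one-colour arrays, with 1 processed intensity per spot on a linear scale after background subtraction and detrending. The software was Feature Extraction 10.7.1.1 per the file headers and 9.5.1.1 per the submitters' processing notes. They also deposited a table of intensity values, quantile normalized, whose columns ranked the probes as the scanner values of their own array did (lowest Spearman correlation 0.99997). Here, processed signals were log2 transformed without control and outlier spots, averaged per probe and set against the array's 75th percentile. A probe was kept where each array of 1 or more groups showed it well above background (32283 of 55681), and the brightest stood for its gene (22761 genes). A model with 4 group means was fitted to all genes with limma 3.58.1 in R 4.3.3. The 3 arrays per group limit the precision, and an exact two-sided permutation test of 3 against 3 cannot give a p below 0.1. The members and the lists of pathway and marker genes were chosen with earlier results of these data known. One gene of the pathway lists is not reported here. The genes named were the members, Socs3, list genes past a threshold or not kept by the filter and, for each member, the genes with the most similar pattern. Replicate numbers were not used as pairs in the main fit. The scripts were tested on simulated data. Gene annotation on mm9 was not used here, so that exon positions of probes are not given. Alternatives covered background correction, normalization, filters, probe choice, moderation, arrays in the fit, slide, pairing by replicate number and leaving out single arrays. A percentile over averaged probes was added after seeing the data.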

Additional observations from a re-analysis of the deposited data

How the results depend on the processing

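In the mean challenge response, Id3 passed the threshold in 22 of 23 alternatives and Bmp2 in 16 of 23. The number of members past it was 1 with no filter on dim probes, 0 with the replicate block, 3 (Bmp4 added) with normexp background correction and with trended and robust moderation, and 1 to 3 when single arrays were left out. In the smSocs3-KO response, where 0 passed in the main setting, 2 passed with normexp background correction, 2 with normexp and quantile normalization, 2 with trended and robust moderation, 1 with probes well above background on all 12 arrays and 1 with the mean of the kept probes, and 0 to 2 when single arrays were left out. In the WT response 0 to 1 passed, the 1 being Bmp4 without WT day 3 replicate 4. In both genotype differences and the interaction no alternative called a member. Over all genes, the count in the WT response was 1070 and ranged from 0 to 3667 (without WT day 3 replicate 4) over single omissions, and was 10 without a filter, 2304 with slide as a block and 0 with only the groups compared. That of the smSocs3-KO response was 548 (38 to 1948, and 50 with slide as a block), that at day 3 was 247 (43 to 604, and 0), that before challenge was 7 (1 to 14, and 0), that of the interaction was 0 (0 to 10, and 0) and that of the mean response was 5211 (2518 to 6540, and 4119). Deviations of arrays that share a replicate number correlated between -0.40 and 0.46. The WT and smSocs3-KO arrays before challenge gave 0.46 (replicate 1) and 0.33 (replicate 3). Arrays with different numbers were not compared, so that these values cannot show whether the numbers pair the samples. With the replicate number as a block the counts over all genes were 0, 1, 2, 1, 0 and 863 in the same order, and no member was called.

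Of 1420 member values under 24 alternatives, 1320 kept direction and side of the threshold and 76 changed sign, none of them called in the main setting. With the replicate block, Grem1 was -0.40 in the WT response, 0.56 in the smSocs3-KO response, 0.0815 in the mean response, 0.96 at day 3 and 0.96 in the interaction, Acvrl1 was 0.17 and Inhba 0.0266 in the smSocs3-KO response, Id1 was 0.75 at day 3, Bmpr1a 0.29 in the interaction, and Bmp2 was 0.0075 and Inhba -0.0062 before challenge. With slide as a block, Bmpr2 was 0.0367 and Acvrl1 0.10 in the smSocs3-KO response, Bmp2 was 0.16, Inhba -0.51, Grem1 -0.24 and Bmpr2 0.20 before challenge, and Id1 was 0.41 and Id3 -0.32 at day 3. Before challenge, Bmp2 was 0.0063 with normexp, 0.0042 with quantile normalization, 0.0276 with both and 0.0041 in the authors' table, and Inhba was -0.0032, -0.0177 and -0.0038 with the last 3. At day 3, Bmp6 was 0.0681 with normexp, 0.0338 with normexp and quantile normalization and 0.0080 with the percentile over averaged probes, and Bmpr2 was -0.0022 with normexp and quantile normalization. In the interaction, Bmp4 was 0.0521 with quantile normalization, 0.0325 with normexp and quantile normalization and 0.0498 in the authors' table, and Bmpr1a was 0.0216 and 0.0220 with the first and the last. The mean response of Grem1 was 0.0206 with quantile normalization and 0.0203 in the authors' table. When single arrays were left out, the WT response ranged from -0.0040 to 0.29 for Bmp6 and from -0.34 to 0.87 for Grem1. The smSocs3-KO response ranged from -0.23 to 0.0367 for Bmpr2, from -0.44 to 0.10 for Acvrl1 and from -0.40 to 0.0481 for Inhba. Before challenge the ranges were -0.0894 to 0.0524 for Bmp2, -0.31 to 0.11 for Id3, -0.48 to 0.18 for Bmpr1a, -0.17 to 0.37 for Acvrl1 and -0.0822 to 0.37 for Inhba. At day 3 they were -0.0571 to 0.12 for Bmpr2, -0.82 to 0.12 for Id1, -0.14 to 0.19 for Bmp6, -0.63 to 0.33 for Grem1 and -0.48 to 0.0236 for Bmpr1a. In the interaction they were -0.41 to 0.25 for Bmpr1a, -0.30 to 0.64 for Id1 and -0.44 to 0.0725 for Bmp4, and the mean response of Grem1 ranged from -0.50 to 0.10. The cause of these changes was not tested.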

Other observations

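Over the 12 arrays, members of different roles varied together to different degrees, described here by Pearson's r without a test. Id3 varied with Bmp6 (0.63) and Id1 (0.62) and ran opposite to Bmpr2 (-0.65) and Bmp2 (-0.64). Bmp4 went with Bmp6 (0.61) and Id3 (0.54) and ran opposite to Bmpr2 (-0.66) and Acvrl1 (-0.53). The receptor genes Bmpr2 and Acvrl1 went together (0.64), while Bmpr1a went with neither (-0.03 and -0.10) and was closest to Grem1 (0.59). These arrays share the group differences, the slides and the array scaling. Bmp4, Bmp6, Inhba, Bmpr1a and Id3 all read lowest on smSocs3-KO replicate 1 before challenge, the array of that label on slide 1. Bmp2, Bmpr2 and Acvrl1 read highest on it, and r without this array was not computed.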
